A study of Homo sapiens with 6 samples.

Results

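Cells set their chloride content and volume with the cation-chloride cotransporters of the SLC12 family and with the WNK kinases that control them, and the transcripts of 9 such genes were followed here in a human kidney cell line transfected with IMP1 constructs. The genes are SLC12A2, SLC12A4, SLC12A7, SLC12A8, SLC12A9, WNK1, WNK3, STK39 and OXSR1, of 19775 gene symbols on the array. Every probe set with 1 of these symbols in the platform annotation was taken, dim ones included, which gave 24 of 54613 probe sets. The group was chosen by a measured value, the intensity of SLC12A7, which was lower with hIMP1 wt than with the empty vector. The other genes were taken for their place in the same pathway.

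The study compared 3 groups of 2 arrays each, all of total RNA from a transfected kidney cell line that the labels do not name: cells given a construct labelled hIMP1 wt, cells given one labelled hIMP1 Dmut, and mock cells given an empty vector. IMP1, encoded by IGF2BP1, is an RNA-binding protein found in cytoplasmic granules with selected mRNAs. The labels do not explain Dmut, give no dose or time after transfection, and do not say whether replicates were separate cultures, so the p-values reflect array-to-array spread that could be purely technical. Each array carries a replicate number, 1 or 2.

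In the SLC12 family, SLC12A2 (NKCC1) brings sodium, potassium and chloride into the cell, while SLC12A4 (KCC1) and SLC12A7 (KCC4) let potassium and chloride out. WNK kinases sense low chloride and osmotic stress, and phosphorylate STK39 (SPAK) and OXSR1 (OSR1). These kinases then phosphorylate the cotransporters, which turns sodium-driven import on and potassium-driven export off. In the kidney the pathway is known for setting salt reabsorption and blood pressure through SLC12A1 and SLC12A3, the targets of loop and thiazide diuretics.

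The upstream sequences of the exporter gene SLC12A7 and the importer gene SLC12A2 are shown because, among the members' probe sets that were not dim, the exporter transcript differed most with hIMP1 wt while the importer transcript stayed near its mock level. Both are the 250 bases before the gene's start in RefSeq on build GRCh38.p14, 5′ to 3′ on the gene's strand, with matches to the GC box GGGCGG on either strand in capitals. SLC12A7 lies on the minus strand (chr5:1112064-1112313) and SLC12A2 on the plus strand (chr5:128083516-128083765).
SLC12A7: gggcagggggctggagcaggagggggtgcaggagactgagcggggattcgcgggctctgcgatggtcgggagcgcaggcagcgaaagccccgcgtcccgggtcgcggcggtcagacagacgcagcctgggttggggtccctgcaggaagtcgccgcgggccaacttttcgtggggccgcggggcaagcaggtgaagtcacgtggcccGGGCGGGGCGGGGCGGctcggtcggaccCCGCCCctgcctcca
SLC12A2: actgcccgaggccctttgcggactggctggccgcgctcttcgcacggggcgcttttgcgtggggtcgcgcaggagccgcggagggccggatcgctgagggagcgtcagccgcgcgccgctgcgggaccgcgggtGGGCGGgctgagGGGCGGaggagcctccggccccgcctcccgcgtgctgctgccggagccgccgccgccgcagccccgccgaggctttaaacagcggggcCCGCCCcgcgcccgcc
SLC12A7 held 4 GC boxes, the first 3 of them overlapping, and SLC12A2 held 3. At least 1 GC box stood in 7 of the 9 members' upstream windows, against 42.6% of all 35116 windows of this length. The windows of SLC12A8 and OXSR1 held none. No member window held the CCAAT box CCAAT, the TATA box TATAAA or the heat shock element GAANNTTC, which were present in 32.0%, 10.7% and 5.8% of all windows. The cAMP response element TGACGTCA was found in 1 member window, that of OXSR1, against 1.6% of all windows. Where the table held several starts, as for SLC12A4 and SLC12A9, the first was used. A match describes these letters only, and no binding was measured.

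The authors deposited linear intensities, with array medians between 26.7 and 33.7. Changes are differences of log2 of the intensity plus 9.04, an offset that makes changes of dim probe sets smaller, and errors on them are standard errors (SE) from a limma fit of all 6 arrays. A probe set was tested when its mean log2 value was at or above the median of all probe sets, near an intensity of 27.3. In that fit 2 of 27307 probe sets passed an adjusted p of 0.05 for hIMP1 wt minus mock, 2 for hIMP1 Dmut minus mock, and 0 for hIMP1 wt minus hIMP1 Dmut, where 102 were higher and 235 lower at an unadjusted p under 0.05. The 2 were both of HSPA6, an inducible HSP70 chaperone. The transfected gene gave intensities between 226 and 326 with hIMP1 wt, between 266 and 288 with hIMP1 Dmut and between 231 and 307 in mock cells at the brightest IGF2BP1 probe set. The other passing one read 253 and 137 with hIMP1 wt, 248 and 150 with hIMP1 Dmut, and 188 and 93.2 in mock cells. Its groups overlapped, but within the numbers 1 and 2 it was above mock by log2 changes of 0.41 and 0.51 with hIMP1 wt and 0.38 and 0.64 with hIMP1 Dmut. The part of the transcript each reads is not given, so neither settles whether the construct was expressed. Arrays of the same number correlated more closely (r from 0.970 to 0.980) than arrays of the same group (0.963 to 0.964), and changes within each number are therefore given for the main members. Epithelial keratin KRT18 lay between 1149 and 1356 on the 6 arrays and the kidney transcription factor PAX8 between 148 and 287. They were among 5 of 9 kidney epithelium markers on the array that passed the filter. PAX2, LHX1, CDH6 and CDH16 did not pass, with PAX2 between 15.2 and 40.8 and CDH16 at most 8.02. Of 7 fibroblast markers, COL1A1 (87.2 to 166) and THY1 passed, and of 6 endothelial ones PECAM1 did. Of 6 markers of differentiated nephron segments on the array, LRP2 and AQP2 passed the filter and the others were dim. Summed over the 6, intensities were 64.4 to 125 with hIMP1 wt, 78.0 to 153 with hIMP1 Dmut and 111 to 125 in mock cells. Of the blood markers, PTPRC reached at most 17.7 and CD14 at most 1.95, while CD3E and HBB passed the filter. The part of these markers in the results was not tested.

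Of the 24 member probe sets, 13 passed the intensity filter. They cover 8 of the 9 genes, since the only probe set of SLC12A8 was below it. All probe sets of SLC12A2, SLC12A7, STK39 and OXSR1 passed, with 1 of 5 for SLC12A4, 2 of 3 for SLC12A9, 3 of 7 for WNK1 and 2 of 3 for WNK3. Across the 6 arrays the highest intensity of a passing probe set was between 1.11 and 2.94 times its lowest, with a median of 1.35. For the 11 dim probe sets this ratio ran from 1.90 to 10.95, with a median of 6.07, so the dim probe sets varied far more between arrays.

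The potassium-chloride exporter SLC12A7 was read by 1 probe set. Its intensity was 234 and 272 with hIMP1 wt, 365 and 445 with hIMP1 Dmut, and 452 and 416 in mock cells. Both hIMP1 wt arrays were below all 4 other arrays, while the hIMP1 Dmut and mock values overlapped. The mean was 253 ± 26.7 (SD, n = 2) with hIMP1 wt, 405 ± 56.2 with hIMP1 Dmut and 434 ± 25.4 in mock cells. These values chose the gene, so they are given as a description without a test. The log2 change was -0.76 ± 0.20 for hIMP1 wt minus mock, a level 0.59 times that of mock cells, with -0.92 in the arrays of number 1 and -0.60 in those of number 2. For hIMP1 Dmut minus mock it was -0.10 ± 0.20, with -0.30 and 0.09 within the numbers 1 and 2. Between the constructs, hIMP1 wt minus hIMP1 Dmut, it was -0.66 ± 0.20, with -0.62 and -0.69. The differences from mock and from hIMP1 Dmut share the hIMP1 wt arrays and are not independent of each other. SLC12A7 had the lowest value of the 13 member probe sets in both comparisons of hIMP1 wt. In the order hIMP1 wt, hIMP1 Dmut, mock, the gap between the upper groups was smaller than the spread between hIMP1 Dmut arrays.

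**Figure D1:**
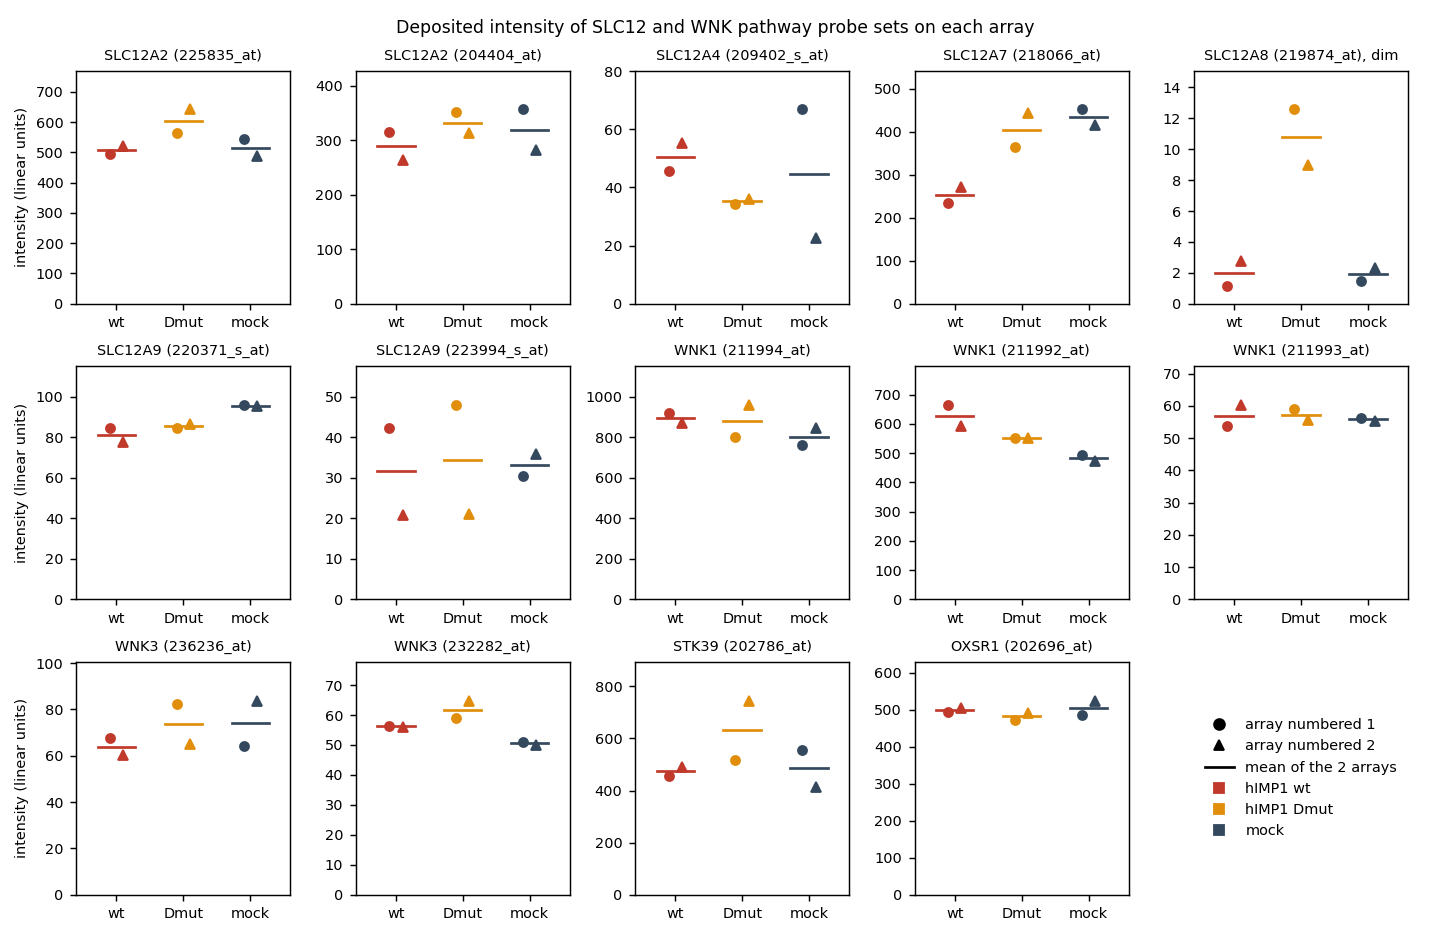
Deposited intensity (linear units, axes from 0) of the 13 member probe sets that passed the filter and of the dim SLC12A8 probe set, by group, with circles for arrays numbered 1, triangles for arrays numbered 2 and bars for the mean of the 2 arrays. SLC12A7 lay at 234 and 272 with hIMP1 wt, below the 4 other arrays, and the second brightest WNK1 probe set was at 665 and 591 with hIMP1 wt, 551 and 551 with hIMP1 Dmut and 494 and 474 in mock cells.

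The other potassium-chloride exporter among the members, SLC12A4, did not share this pattern at its 1 passing probe set. Its intensity was 45.7 and 55.4 with hIMP1 wt, 34.2 and 36.2 with hIMP1 Dmut, and 66.8 and 22.7 in mock cells. The mock arrays bracketed all the others, so the mock level of SLC12A4 is poorly fixed. The log2 change for hIMP1 wt minus mock was 0.27 ± 0.44, and -0.47 and 1.02 within the arrays numbered 1 and 2. For hIMP1 Dmut minus mock it was -0.15 ± 0.44 (limma, adjusted p = 1), with a 95% interval from -1.12 to 0.82. The hIMP1 wt arrays were both above the hIMP1 Dmut arrays, but that change, 0.42 ± 0.44, did not pass (limma, adjusted p = 1). At 1 dim probe set SLC12A4 read 29.4 and 22.3 with hIMP1 wt, against 10.1 and 7.30 with hIMP1 Dmut and 19.4 and 4.51 in mock cells, with both hIMP1 wt arrays above the rest. The other 3 dim probe sets of SLC12A4 had overlapping groups in every comparison.

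The sodium-driven importer SLC12A2 stayed close to its mock level with hIMP1 wt. Its brighter probe set had intensities of 494 and 523 with hIMP1 wt, 566 and 642 with hIMP1 Dmut, and 543 and 487 in mock cells. Both hIMP1 Dmut arrays were above the other 4. The log2 change was -0.017 ± 0.18 for hIMP1 wt minus mock and 0.22 ± 0.18 for hIMP1 Dmut minus mock (limma, adjusted p = 1, 95% interval from -0.18 to 0.63). The dimmer probe set read 315 and 264 with hIMP1 wt, 352 and 313 with hIMP1 Dmut, and 357 and 282 in mock cells. Here the hIMP1 Dmut range lay within the mock range, with a log2 change of 0.064 ± 0.21 for hIMP1 Dmut minus mock and -0.13 ± 0.21 for hIMP1 wt minus mock. The changes at the 2 probe sets for hIMP1 wt minus hIMP1 Dmut were -0.24 ± 0.18 and -0.20 ± 0.21, the same in sign, and neither passed (limma, adjusted p = 1).

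SLC12A9 and SLC12A8 are less well known members of the family, and SLC12A9 has been described as a partner of other cotransporters. At its brightest probe set SLC12A9 read 84.4 and 77.5 with hIMP1 wt, 84.7 and 86.6 with hIMP1 Dmut, and 96.0 and 95.3 in mock cells. The 3 groups did not overlap, although the gap between them was small. The log2 change was -0.22 ± 0.26 for hIMP1 wt minus mock and -0.14 ± 0.26 for hIMP1 Dmut minus mock (limma, adjusted p = 1). The other passing probe set split by replicate number in both construct groups instead, at 42.3 and 20.9 with hIMP1 wt and 48.0 and 21.0 with hIMP1 Dmut, against 30.4 and 35.9 in mock cells.

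SLC12A8 was near the bottom of the scale on every array. It read 1.15 and 2.77 with hIMP1 wt, 12.6 and 8.95 with hIMP1 Dmut, and 1.49 and 2.33 in mock cells. Both hIMP1 Dmut arrays were above the other 4, at a level near the lower quartile of the array. The ratio of mean intensities of hIMP1 Dmut to mock was 5.64, but the change on the log2 scale with the offset was 0.85. A smaller offset (the 10th percentile) gave 1.57 and a larger one (the median) gave 0.35, and the probe set was not tested.

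Among the kinases, WNK1, the upstream chloride-sensing kinase, was read by 7 probe sets, 3 of which passed the filter. At the second brightest probe set WNK1 was at 665 and 591 with hIMP1 wt, 551 and 551 with hIMP1 Dmut, and 494 and 474 in mock cells. The groups did not overlap, with hIMP1 wt highest and mock lowest. The log2 change was 0.37 ± 0.18 for hIMP1 wt minus mock, and 0.42 and 0.31 within the arrays numbered 1 and 2. For hIMP1 Dmut minus mock it was 0.18 ± 0.18, and 0.15 and 0.21 within the numbers, which did not pass (limma, adjusted p = 1, 95% interval from -0.22 to 0.58). The brightest WNK1 probe set was at 919 and 873 with hIMP1 wt, 802 and 959 with hIMP1 Dmut, and 762 and 844 in mock cells. There both hIMP1 wt arrays were above both mock arrays, by a log2 change of 0.16 ± 0.18, and the hIMP1 Dmut arrays overlapped both groups. The dimmest passing one moved little, lying between 53.8 and 60.3 on all 6 arrays with log2 changes of 0.024 ± 0.30 and 0.031 ± 0.30 against mock for hIMP1 wt and hIMP1 Dmut. WNK1 makes full-length and kinase-deficient transcripts in kidney, and the files do not say which of them each probe set reads. The 4 dim probe sets of WNK1 lay between 1.46 and 39.0 and did not agree in sign. Some had both hIMP1 wt arrays below both hIMP1 Dmut arrays, by log2 changes of -0.75 and -0.72, and the others overlapped there.

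WNK3, a paralogue of WNK1, had passing probe sets that differed from each other. At the brighter one it read 67.5 and 60.4 with hIMP1 wt, 82.6 and 65.1 with hIMP1 Dmut, and 64.1 and 83.8 in mock cells, and all groups overlapped. At the other it read 56.2 and 56.2 with hIMP1 wt, 58.8 and 64.8 with hIMP1 Dmut, and 51.1 and 49.98 in mock cells, and the groups did not overlap. The log2 changes there were 0.13 ± 0.30 for hIMP1 wt minus mock and 0.25 ± 0.30 for hIMP1 Dmut minus mock (limma, adjusted p = 1).

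The kinases that act directly on the cotransporters were STK39 and OXSR1. STK39 read 456 and 491 with hIMP1 wt, 517 and 746 with hIMP1 Dmut, and 556 and 414 in mock cells. The highest value was on hIMP1 Dmut replicate 2. The log2 change for hIMP1 Dmut minus mock was 0.37 ± 0.23 (limma, adjusted p = 1), but it was -0.10 in the arrays of number 1 and 0.84 in those of number 2, and it was 0.11 without hIMP1 Dmut replicate 2 and 0.16 without mock replicate 2. For hIMP1 wt minus hIMP1 Dmut the groups of STK39 did not overlap, and the change was -0.39 ± 0.23 (limma, adjusted p = 1). Leaving out hIMP1 Dmut replicate 2 moved it to -0.13, and leaving out replicate 1 of that group moved it to -0.65. OXSR1 was the steadiest member, at 492 and 505 with hIMP1 wt, 472 and 491 with hIMP1 Dmut, and 484 and 524 in mock cells. Its log2 change was -0.016 ± 0.18 for hIMP1 wt minus mock and -0.064 ± 0.18 for hIMP1 Dmut minus mock (limma, adjusted p = 1), with a 95% interval for hIMP1 Dmut from -0.46 to 0.34.

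**Figure D2:**
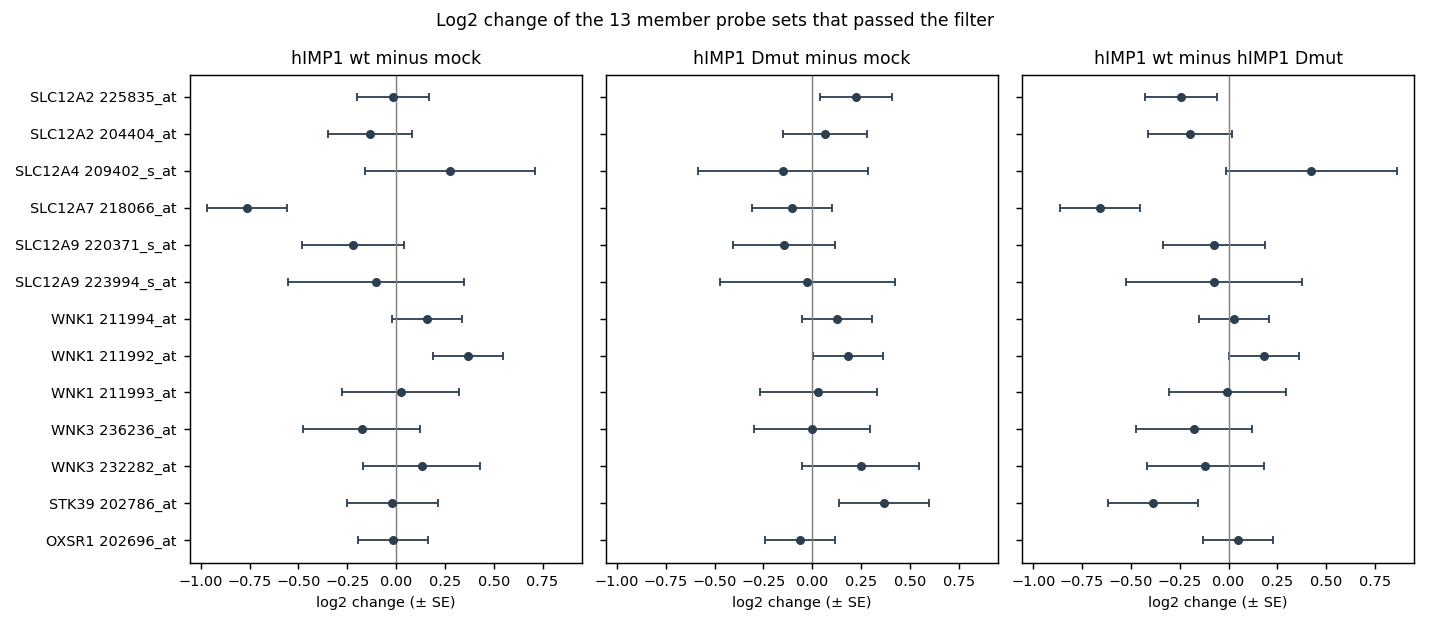
Log2 change (horizontal axis, points) with its standard error (bars) of the 13 passing member probe sets, in a panel for each comparison. SLC12A7 was at -0.76 for hIMP1 wt minus mock and -0.66 for hIMP1 wt minus hIMP1 Dmut, and at -0.10 for hIMP1 Dmut minus mock.

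Leaving out SLC12A7, which was given no test, none of the passing member probe sets was called at an adjusted p of 0.05 for hIMP1 Dmut minus mock, where the share called over all 27307 was 0.00732%, or for hIMP1 wt minus hIMP1 Dmut, where it was 0%. For hIMP1 wt minus mock, in which no member was tested, that share was 0.00732%. At an unadjusted p under 0.05 no tested member probe set was past the threshold for hIMP1 Dmut minus mock, where 0.846% of all were higher and 0.571% lower. No member given a test was past it for hIMP1 wt minus hIMP1 Dmut either, against 0.374% of all higher and 0.861% lower. Over all probe sets these shares were 0.417% and 0.612% for hIMP1 wt minus mock. In groups of 2 arrays an exact two-sided permutation test of a single value cannot go below p = 0.333. With hIMP1 wt, 3 member probe sets lay wholly above mock (2 of WNK1 and 1 of WNK3), against 9.72% of all tested, and 2 wholly below (SLC12A7 and SLC12A9), against 11.6%. The choice used that comparison, and nothing is read from these counts. With hIMP1 Dmut, 3 lay wholly above mock (SLC12A2, WNK1 and WNK3), or 23.1% against 12.6% of all tested, and 1 wholly below (SLC12A9), or 7.69% against 11%. Between the constructs, 3 were wholly higher with hIMP1 wt (SLC12A4, WNK1 and OXSR1), or 23.1% against 8.89% of all. Of these, WNK1 and OXSR1 differed from hIMP1 Dmut by only 0.18 and 0.048, and the brightest WNK1 probe set overlapped. In the same comparison 5 were wholly lower (SLC12A2, SLC12A7, SLC12A9, WNK3 and STK39), or 38.5% against 13.1% of all. Those 5 include the gene the choice rests on, and the lower values of SLC12A9 and WNK3 differed from hIMP1 Dmut by -0.075 and -0.12 on the log2 scale. The median log2 change of the 13 was -0.017 for hIMP1 wt minus mock, 0.031 for hIMP1 Dmut minus mock and -0.076 for hIMP1 wt minus hIMP1 Dmut. Over all tested probe sets these medians were -0.011, 0.0099 and -0.020.

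**Figure D3:**
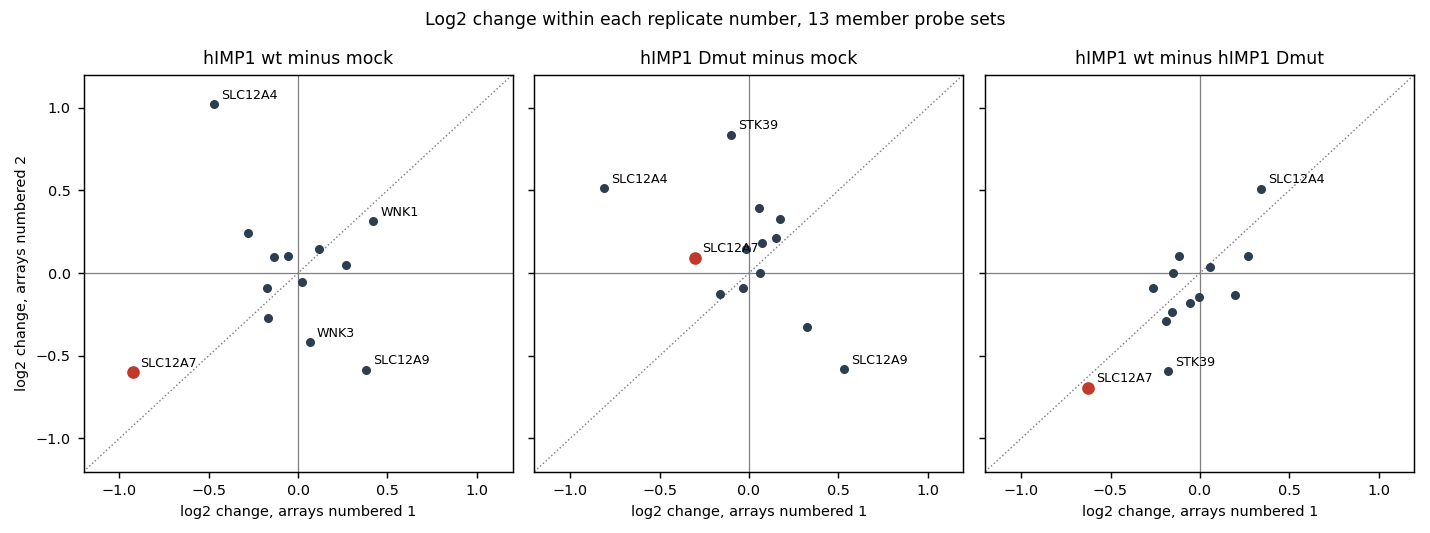
Log2 change of the 13 passing member probe sets in the arrays of number 1 (horizontal) and of number 2 (vertical), a panel for each comparison, with a dotted line of equality. SLC12A7 was at -0.92 and -0.60 for hIMP1 wt minus mock, while the passing SLC12A4 probe set was at -0.47 and 1.02, so its sign differed between the numbers.

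The rest of the pathway was followed in 5 lists of 45 genes, of which 31 had a passing probe set. None of the 31 passed the test for hIMP1 Dmut minus mock or for hIMP1 wt minus hIMP1 Dmut (limma), at the brightest passing probe set of each gene. The other SLC12 genes looked up had no passing probe set. SLC12A1 and SLC12A3, the salt transporters of the thick ascending limb and the distal convoluted tubule, stayed at or below 38.4. The neuronal exporter SLC12A5 read 5.65 and 9.41 with hIMP1 wt, 24.8 and 27.1 with hIMP1 Dmut, and 15.7 and 21.0 in mock cells. Its hIMP1 wt arrays were below all the others, as for SLC12A7, by log2 changes of -0.73 from mock and -1.09 from hIMP1 Dmut. This probe set was dim and was not tested.

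A list of 16 genes held the kinases WNK2 and WNK4 and regulators of the WNK kinases, and 15 were measured. WNK2 was counted at its brightest passing probe set, and WNK4 had none that passed. Of the 15, 6 were higher and 9 lower for hIMP1 wt minus mock (median -0.057). For hIMP1 Dmut minus mock 8 were higher and 7 lower (median 0.016). For hIMP1 Dmut the largest statistics were those of TSC22D4 and NEDD4L. TSC22D4, a TSC22 family protein, read 39.0 and 27.0 with hIMP1 wt, 21.9 and 41.5 with hIMP1 Dmut, and 48.7 and 66.9 in mock cells, with a log2 change of -0.74 ± 0.39 for hIMP1 Dmut minus mock (limma, adjusted p = 1). NEDD4L, a ubiquitin ligase of epithelial ion transport, read 288 and 242 with hIMP1 wt, 373 and 272 with hIMP1 Dmut, and 286 and 202 in mock cells, a change of 0.39 ± 0.25 with overlapping groups (limma, adjusted p = 1). CUL3, whose ubiquitin ligase with KLHL3 removes WNK kinases, had log2 changes against mock of -0.13 ± 0.17 with hIMP1 wt and -0.014 ± 0.17 with hIMP1 Dmut. KLHL3 itself read 15.3 and 66.5 with hIMP1 wt, 42.5 and 77.1 with hIMP1 Dmut, and 61.5 and 82.1 in mock cells. The groups overlapped, and its log2 change for hIMP1 wt minus mock was -0.90 ± 0.51, with -1.54 and -0.27 within the numbers 1 and 2. It was -0.27 ± 0.51 for hIMP1 Dmut minus mock.

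WNK2, another WNK kinase, is named here after its values were seen, because its 3 passing probe sets went different ways. At the second brightest it read 20.5 and 21.1 with hIMP1 wt, 17.7 and 19.3 with hIMP1 Dmut, and 64.4 and 68.7 in mock cells. All 4 construct arrays were below both mock arrays, which also carried this probe set past the filter. The log2 change was -1.34 ± 0.36 for hIMP1 wt minus mock and -1.46 ± 0.36 for hIMP1 Dmut minus mock, at -1.46 in each number for hIMP1 Dmut. No test is given, because the probe set was picked on these values and passed the filter through the mock arrays. These comparisons share the mock arrays. WNK2 at the dimmest passing one read 57.7 and 34.7 with hIMP1 wt, 33.9 and 18.4 with hIMP1 Dmut, and 26.6 and 19.0 in mock cells. The change for hIMP1 wt minus mock had the opposite sign there (0.77 ± 0.42). This probe set passed the filter through its hIMP1 wt arrays, with a mean log2 value of 5.28 against the cut of 5.19, so nothing is read from that sign. At the brightest the log2 changes against mock were -0.33 ± 0.34 and -0.35 ± 0.34 for hIMP1 wt and hIMP1 Dmut. The dim probe sets of WNK2 had log2 changes of -0.93, -0.69 and 0.15 for hIMP1 wt minus mock, and were not tested.

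Volume-regulated chloride channels release chloride when cells swell. Of a list of 9 genes of these channels and of related proteins, 8 were measured. The measured ones were LRRC8A to LRRC8E, CLCN3, ANO6 and CLNS1A. For hIMP1 wt minus mock 6 were higher and 2 lower (median 0.055), and for hIMP1 Dmut minus mock 4 and 4 (median 0.063). LRRC8B, a channel subunit, read 302 and 214 with hIMP1 wt, 343 and 314 with hIMP1 Dmut, and 251 and 236 in mock cells, a change of 0.42 ± 0.23 for hIMP1 Dmut minus mock (limma, adjusted p = 1). ANO6, a scramblase and ion channel, had a value of 0.16 ± 0.19 in that comparison. The 3 measured of 8 genes of the sodium pump and sodium-proton exchange had log2 values below 0 for hIMP1 wt minus mock (median -0.17) and hIMP1 Dmut minus mock (median -0.14). These were -0.17 ± 0.19 and -0.18 ± 0.19 for ATP1B3, a pump subunit, and -0.26 ± 0.23 and -0.14 ± 0.23 for FXYD5, a pump regulator, and the hIMP1 Dmut values did not pass (limma, adjusted p = 1). Of 8 genes of the osmotic response, 5 were measured, with 4 higher and 1 lower for hIMP1 wt minus mock (median 0.19) and for hIMP1 Dmut minus mock (median 0.10). NFAT5, the transcription factor of that response, read 352 and 391.8 with hIMP1 wt, 370 and 377 with hIMP1 Dmut, and 334 and 339 in mock cells. Its changes against mock were 0.14 ± 0.19 and 0.15 ± 0.19, and those of the taurine transporter SLC6A6 were 0.37 ± 0.31 and 0.26 ± 0.31, with neither hIMP1 Dmut value past the threshold (limma, adjusted p = 1).

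The 3 genes whose log2 values followed those of SLC12A7 most closely over the 6 arrays were POU5F1B (r = 0.996), RBM4, an RNA-binding splicing factor (r = 0.986), and PLCXD2 (r = 0.980). They were picked as the highest of 12268 genes over only 6 points, of which 51 had an r above 0.9, and are a description. POU5F1B read 9.89 and 13.7 with hIMP1 wt, 33.1 and 44.9 with hIMP1 Dmut, and 47.8 and 42.1 in mock cells. RBM4 read 222 and 235 with hIMP1 wt, 254 and 276 with hIMP1 Dmut, and 284 and 264 in mock cells. Both were lowest on the hIMP1 wt arrays, which follows from picking them for their likeness to SLC12A7. Of the other members, r with SLC12A7 at the brightest probe set ran from -0.35 for WNK1 to 0.72 for SLC12A9.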

How the data were processed

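RNA from human kidney cells was hybridised to 6 one-colour arrays, 2 each for hIMP1 wt, hIMP1 Dmut and mock, grouped by the sample descriptions and numbered by the sample titles. The authors deposited 1 linear intensity for each probe set. Their software is not given in the sources used here. The trimmed mean, 2% off each end, was 150.02 on every array. No detection calls were used.

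The 62 control probe sets were left out. Intensities were used as log2 of the deposited intensity plus 9.04, the lower quartile (25th percentile). Probe sets with a mean log2 value of at least 5.19, the median, were tested, 27307 of 54613. The 9 member symbols matched the RefSeq gene table, with 0 changed. limma 3.58.1 in R 4.3.3 (lmFit, eBayes with an intensity trend) fitted all 6 arrays with a coefficient per group (3 residual degrees of freedom, prior 7.03). All tests were two-sided and adjusted by Benjamini-Hochberg over the 27307 and a threshold of 0.05. The fit was also run on simulated data with independent noise on each array. That setting lacks the closer correlation of same-numbered arrays, and nothing is read from it here. Intervals are at 95%. The number of arrays limits precision.

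Members, lists and tests were chosen with earlier results of these data known. SLC12A7, and all members for hIMP1 wt minus mock, were given no test. Named were every SLC12A7 probe set, the brightest probe set of each other member, and, per pathway list, genes called and the 2 with the largest statistic for hIMP1 Dmut minus mock, plus the 3 genes closest to SLC12A7. Further probe sets of the members and other pathway genes were added after their values were seen. Alternatives were quantile, median and cyclic loess scaling, 2 other offsets, 2 other filters, a block for replicate number, fits to the 4 arrays of a comparison, other variance priors, and each array left out.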

Additional observations from a re-analysis of the deposited data

How the results depend on the processing

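No tested member probe set was called for hIMP1 Dmut minus mock or hIMP1 wt minus hIMP1 Dmut under any of the 17 alternatives. For hIMP1 wt minus mock, SLC12A7 lay between -0.87 and -0.66 with 1 array left out and between -0.78 and -0.71 under the others. For hIMP1 wt minus hIMP1 Dmut it lay between -0.80 and -0.52, and between -0.67 and -0.53. For hIMP1 Dmut minus mock it reached 0.035 without hIMP1 Dmut replicate 1. The probe sets called for hIMP1 wt minus mock numbered 1 with an offset at the 10th percentile, 1 above the 75th percentile, 0 without an intensity trend, 0 when just the 4 arrays in the comparison were fitted, and 0 to 3 with 1 array left out (0 without either hIMP1 Dmut array). For hIMP1 Dmut minus mock they numbered 1 above the 75th percentile, 0 without a trend, and 0 to 2 with 1 array left out (0 without either hIMP1 Dmut array). The member median for hIMP1 wt minus hIMP1 Dmut was -0.20 above the 75th percentile, where fewer member probe sets were tested. Median scaling moved the median of all tested probe sets in that comparison to 0.10, and there SLC12A9 turned sign, to 0.042. It also turned the sign of the member medians, to 0.040 (hIMP1 wt minus mock), -0.031 (hIMP1 Dmut minus mock) and 0.011 (hIMP1 wt minus hIMP1 Dmut). For hIMP1 wt minus mock it turned SLC12A2, STK39 and OXSR1, to 0.040, 0.038 and 0.041. Quantile scaling turned the member median for hIMP1 Dmut minus mock, to -0.016. Signs also turned with 1 array left out, where the values ran for hIMP1 Dmut minus mock from -0.78 to 0.48 for SLC12A4, from -0.00064 to 0.26 for WNK1 and from -0.17 to 0.17 for WNK3 (0.17 without mock replicate 2, 0.15 without hIMP1 Dmut replicate 2), and for hIMP1 wt minus hIMP1 Dmut from -0.098 to 0.16 for WNK1 (-0.0071 without hIMP1 wt replicate 1). The untested signs for hIMP1 wt minus mock turned too, from -0.35 to 0.90 for SLC12A4, -0.23 to 0.19 for STK39, -0.094 to 0.059 for SLC12A2, -0.072 to 0.040 for OXSR1 and -0.10 to 0.11 for SLC12A8. The cause was not tested. Cyclic loess scaling was chosen after seeing the data and changed no call. Deviations of same-numbered arrays from their group means correlated across tested probe sets at 0.20 to 0.46 between groups. With the replicate number as a block, 2, 2 and 0 probe sets were called in the 3 comparisons and the SLC12A7 changes were -0.76, -0.10 and -0.66, and no call changed. The dim probe sets limit what can be said of SLC12A8 and of most SLC12A4 probe sets.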
